A study of Mus musculus with 21 samples.

Results

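The 10 genes described here serve fatty acid oxidation and the switch between glucose and fat as fuel, and were followed in AGRP and POMC neurons of the mouse arcuate nucleus. They were chosen by symbol as *Ucp2*, *Cpt1a*, *Cpt1c*, *Cpt2*, *Acadm*, *Acadl*, *Hadha*, *Ppargc1a*, *Angptl4* and *Pdk4*. All 10 were rows of the count and TPM tables, among 35266 genes. AGRP neurons came from NPY-hrGFP mice and POMC neurons from Pomc-GFP mice, both reporter strains on C57BL/6J in which GFP follows expression of *Npy* or *Pomc*, so cell type and reporter strain cannot be told apart. All mice were males, 46 to 56 days old. For the food-deprived (FD) condition mice had water but no food for 24 h, and for the fed condition they had food ad libitum, in a fresh cage in both cases. There were 5 fed and 6 FD libraries of AGRP neurons and 5 fed and 5 FD libraries of POMC neurons, each from 44 to 214 fluorescent cells of 1 mouse sorted by hand.

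Long-chain fatty acids enter mitochondria through the carnitine shuttle, which carries them across the inner membrane as acylcarnitines, and a cycle of beta-oxidation then cuts them down to acetyl-CoA. In liver, heart and muscle, fasting raises the genes of this route, often through PPAR receptors and the coactivator PGC-1alpha, and at the same time pyruvate dehydrogenase kinases inactivate pyruvate dehydrogenase and so hold back the conversion of pyruvate to acetyl-CoA. Neurons rely mostly on glucose and oxidise little fat, but in AGRP neurons fatty acid oxidation and the uncoupling protein UCP2 have been linked to the neuron's activity in fasting. Malonyl-CoA and the brain form of carnitine palmitoyltransferase, CPT1C, have been linked to hypothalamic control of feeding.

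The libraries held 9822298 to 37663979 gene counts. The marker genes of the sorted cells fit their labels, with *Agrp* and *Npy* summing to 12064 to 68921 TPM in AGRP libraries and 5.45 to 226 TPM in POMC libraries, and *Pomc* and *Cartpt* summing to 8809 to 37160 TPM in POMC libraries and 114 to 227 TPM in AGRP libraries. TPM is a transcript level that is corrected for gene length and scaled to the same total in each library. Markers of other cells were low in all 4 groups, at 0.329 to 14.5 TPM for 5 astrocyte genes, 0.180 to 20.9 TPM for 6 microglial genes, 0.226 to 10.2 TPM for 5 endothelial genes, 0 to 19.3 TPM for 3 mural cell genes, 1.24 to 14.7 TPM for 4 tanycyte and ependymal genes and 16.4 to 57.9 TPM for 5 oligodendrocyte genes, and the microglial gene *C1qa* was at 0 in every library. Of the 18 markers of these other cells that could be tested, 1 changed with FD in AGRP neurons (the astrocyte gene *Aldh1l1*, higher) and 0 in POMC neurons. By the ages in the labels, the AGRP libraries were split here into a younger cohort, up to postnatal day 50 (2 fed, 3 FD), and an older cohort (3 fed, 3 FD). All POMC mice were older. The cohorts are an age split and no labelled batch. In the younger cohort the fed mice were at day 46 and the FD mice at day 47, so this difference and FD cannot be told apart there.

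Ranked by TPM, the order of the 10 genes differed between the cell types. *Ucp2* came first in AGRP neurons, at a mean of 165 TPM in fed and 167 TPM in FD mice, and *Hadha* came second at 82.9 and 79.2 TPM. The ranges of these neighbours did not overlap in either condition. In POMC neurons of fed mice *Cpt1c* (73.8 TPM) and *Hadha* (63.5 TPM) led with overlapping ranges and *Ucp2* followed *Acadm* at 30.1 TPM. In FD mice *Hadha* (74.9 TPM) and *Cpt1c* (69.4 TPM) led in POMC neurons, and *Ucp2* followed at 45.7 TPM, below *Cpt1c* in every library. *Cpt1a*, *Angptl4* and *Pdk4* took the last 3 places in every group, at mean levels of at most 5.00 TPM. Between *Acadm*, *Ppargc1a*, *Acadl* and *Cpt2*, neighbours in the order overlapped in all 4 groups.

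**Figure D1:**
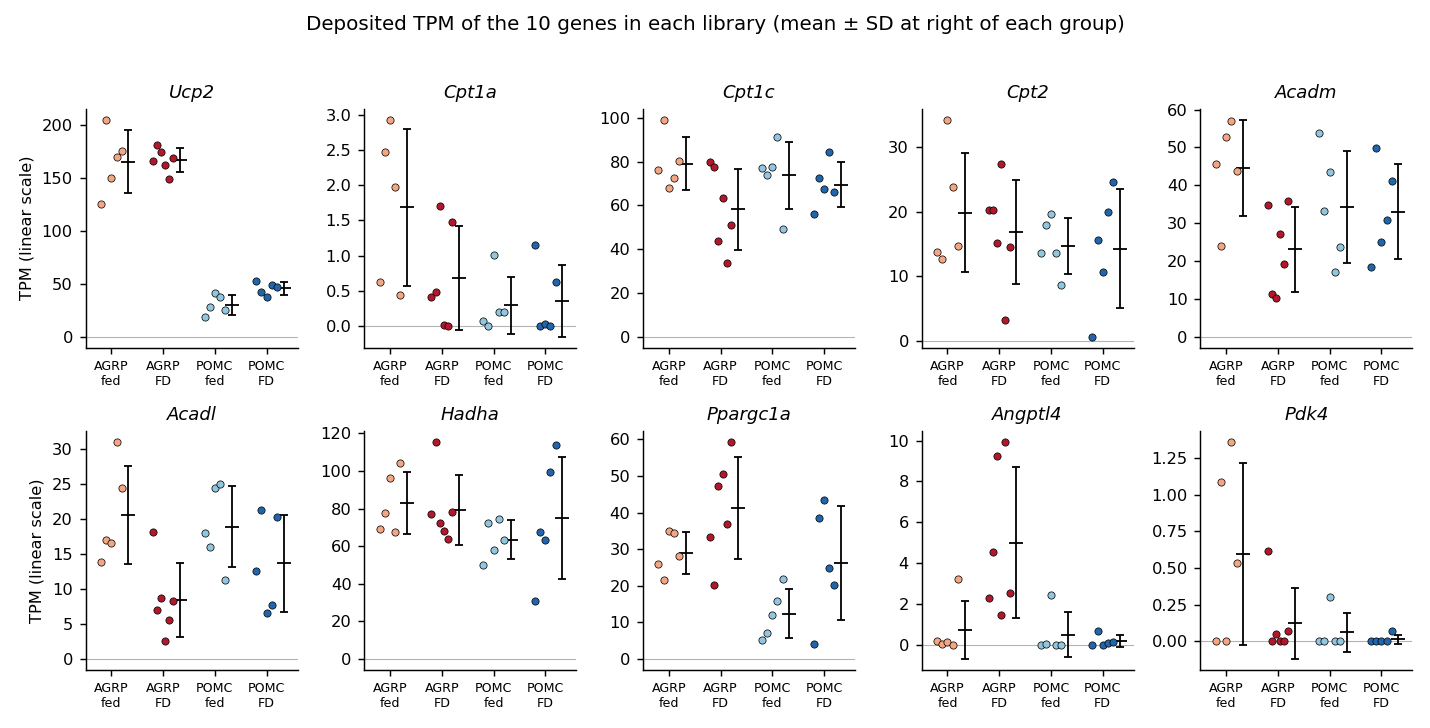
TPM of each gene (vertical axes, linear and separate for each gene) in every library of the 4 groups (points, in replicate order), with the group mean ± SD beside the points. *Ucp2* lies between 125 and 205 TPM in the AGRP fed libraries and every POMC library lies below every AGRP library, whereas *Angptl4* and *Pdk4* lie near 0 in most libraries outside the AGRP FD and AGRP fed groups, respectively.

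*Ucp2* (ENSMUSG00000033685, mm10 chr7:100493337-100502020, plus strand) encodes a carrier of the inner mitochondrial membrane that lowers the membrane potential and the release of reactive oxygen species. *Ppargc1a* (ENSMUSG00000029167, mm10 chr5:51454249-51553921, minus strand) encodes PGC-1alpha, the coactivator that drives mitochondrial biogenesis and oxidative genes. The 250 bases before the RefSeq start sites of both genes (GRCm38.p6, each on the strand of its gene) are shown because these were the members whose groups did not overlap between the cell types in fed mice. They span chr7:100493108-100493357 and chr5:51567726-51567975. Capitals mark CGTCA, the reverse complement of TGACG, a half-site of the cAMP response element.

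Ucp2: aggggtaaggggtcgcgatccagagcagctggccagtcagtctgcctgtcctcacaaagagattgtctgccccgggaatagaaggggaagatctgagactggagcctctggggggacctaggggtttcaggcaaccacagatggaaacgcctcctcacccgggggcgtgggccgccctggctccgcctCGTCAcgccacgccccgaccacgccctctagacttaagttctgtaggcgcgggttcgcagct
Ppargc1a: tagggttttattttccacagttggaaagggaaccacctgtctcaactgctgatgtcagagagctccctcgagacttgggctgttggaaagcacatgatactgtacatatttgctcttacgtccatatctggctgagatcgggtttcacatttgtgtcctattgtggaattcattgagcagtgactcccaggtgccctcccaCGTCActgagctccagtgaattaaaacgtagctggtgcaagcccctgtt

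Of the 10 genes, 9 had an entry among the 32851 RefSeq promoters of 300 bases, which run from 250 before to 50 after the start site. TGACG on either strand lay in 3 of these 9, at -62 in *Ucp2*, -49 in *Ppargc1a* and -21 in *Acadm*, and in 20.8% of all promoters. The whole element TGACGTCA, the estrogen-related receptor site TCAAGGTCA and the PPAR site AGGTCANAGGTCA lay in 0 of the 9, and in 1.79%, 0.423% and 0.0396% of all promoters, each searched on both strands. The start site of *Ppargc1a* in RefSeq lies 13804 bases upstream of the end of the locus in the count table. The promoters of *Ucp2* (64.3% GC, 21 CpG) and *Hadha* (58.7% GC, 20 CpG) were richer in GC than the median promoter (52.7%), and that of *Ppargc1a* was poorer (48.7% GC, 5 CpG).

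The first comparison asked how the 2 cell types differ in fed mice. *Ucp2* was the only one of the 9 tested members called, at 4.92-fold higher in AGRP neurons. Levels are given below as normalised CPM, which is CPM scaled by edgeR's TMM factors. In AGRP neurons of fed mice *Ucp2* was at 136, 249.9, 168, 189.9 and 201 CPM, and in POMC neurons of fed mice at 28.0, 38.9, 49.4, 45.9 and 29.8 CPM. Every AGRP library lay above every POMC library by a wide gap. In pooled cells, fewer cells that express a gene and less of its RNA per cell cannot be told apart. The log2 difference was 2.30 ± 0.19 (SE; q = 4.01e-10 by edgeR's quasi-likelihood test). The share of all 16513 tested genes called in this comparison was 7.57%, with 3.33% higher and 4.24% lower in AGRP neurons. Under stricter criteria, which also ask for an absolute log2 difference over 1 and a group mean over 20 CPM, *Ucp2* was again the 1 member called (4.02% of all genes).

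*Ppargc1a* was at 45.5, 42.8, 63.4, 62.3 and 52.5 CPM in AGRP neurons of fed mice, and at 12.7, 16.0, 23.4, 31.1 and 42.0 CPM in POMC neurons of fed mice. The groups did not overlap, though the lowest AGRP library and the highest POMC library nearly met. The log2 difference of 1.09 ± 0.39 did not pass the threshold (q = 0.0925 by edgeR), but did with DESeq2 (q = 0.0483) and without POMC fed replicate 5 (1.36, q = 0.0408), the library in which the mural cell markers summed to 19.3 TPM, against 0.0480 to 1.35 TPM in the other POMC fed libraries. Among the 3 mural cell markers *Kcnj8* had the highest mean in POMC fed libraries (4.03 TPM). The other 2 had means under 1 TPM, and *Rgs5* was at 0 in all POMC fed libraries. The part of mural cells in the *Ppargc1a* level was not tested. Of all tested genes, 8.93% had groups that did not overlap in this comparison, and *Ucp2* and *Ppargc1a* were the 2 such members.

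In FD mice *Ucp2* was again higher in AGRP neurons, by 4.16-fold. It was at 197 to 264 CPM (median 222) in AGRP neurons and at 63.6, 50.1, 44.5, 57.1 and 56.7 CPM in POMC neurons, again with a wide gap between the groups. The log2 difference was 2.06 ± 0.19 (q = 1.25e-09 by edgeR), and it stayed past the threshold in all 11 fits that left out 1 library. With scaling to the ERCC spike-in RNA per sorted cell, *Ucp2* was 2.45 higher on the log2 scale in fed mice without passing the threshold (q = 0.110) and 3.24 higher in FD mice (q = 0.00565). The added volume of spike-in RNA was 10 µl in 2 AGRP fed, 2 AGRP FD and 2 POMC FD libraries and at most 4.28 µl in the others, so in fed mice volume and cell type cannot be fully told apart.

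*Angptl4* was the other member called between the cell types in FD mice. *Angptl4* (ENSMUSG00000002289, mm10 chr17:33773750-33781575, minus strand) encodes a secreted inhibitor of lipoprotein lipase and is a classic target of PPAR receptors and of fasting. It was low everywhere, at 1.73 to 10.2 CPM (median 3.76) in AGRP neurons of FD mice and at 0, 0.621, 0, 0.0982 and 0.145 CPM in POMC neurons of FD mice, where 4 of 5 libraries held 3 counts or fewer. The groups did not overlap. *Angptl4* entered the tests, which asked for over 1 CPM in at least 3 libraries, through the group where it was high, since 6 of its 8 libraries over 1 CPM were AGRP FD libraries. Its tests are therefore given as a description of that level. The fitted log2 difference was 4.83 ± 1.69 (q = 0.0441 by edgeR), and its 95% interval ran from 1.37 to 8.29. This call was lost in 7 of 11 fits that left out 1 library (AGRP FD replicates 2, 3 and 5 and POMC FD replicates 1, 3, 4 and 5), with q up to 0.0885, and with the age cohort (q = 0.0929) or the replicate number (q = 0.0623) as a block. In FD mice 18.6% of all tested genes were called between the cell types, with 9.28% higher and 9.27% lower in AGRP neurons, and 11.4% had groups that did not overlap. Under the stricter criteria *Ucp2* was the 1 member called, and *Angptl4* was left out by its mean under 20 CPM (8.11% of all genes).

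*Ppargc1a* was 1.79-fold higher in AGRP than in POMC neurons of FD mice (log2 difference 0.84 ± 0.38), which did not pass the threshold (q = 0.124 by edgeR, 0.0341 by limma-voom). The 6 other tested members differed between the cell types by -0.09 to 2.41 on the log2 scale in fed mice and by -0.58 to 1.02 in FD mice, with none past the threshold (lowest q of 0.433 and 0.449). For *Cpt1c* the 95% interval of the difference ran from -0.59 to 0.41 in fed mice and from -0.54 to 0.42 in FD mice, so a 2-fold difference lay outside it. For *Cpt1a* the interval in fed mice ran from -0.72 to 5.53, which left a large difference within it.

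**Figure D2:**
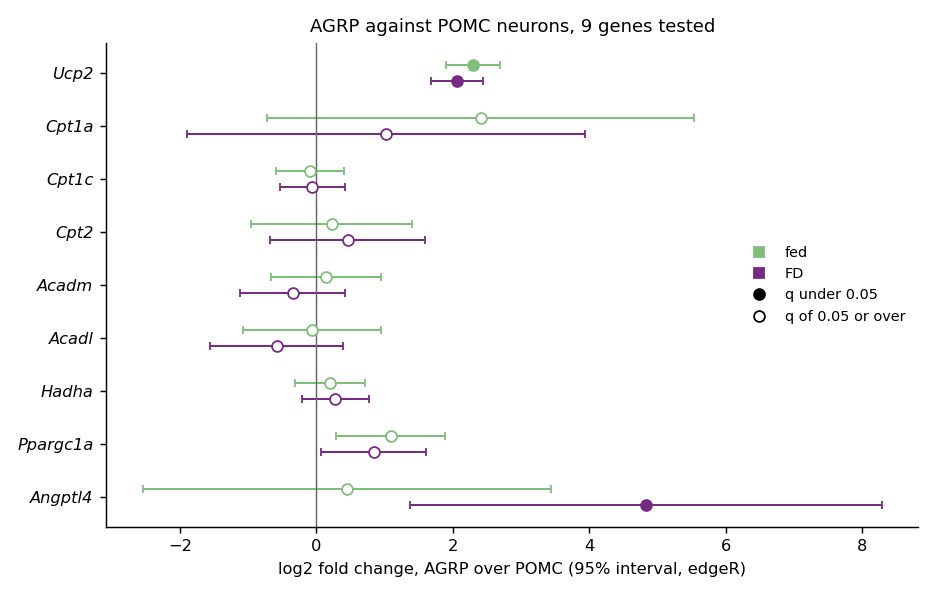
Log2 fold change of AGRP over POMC neurons (horizontal axis) with its 95% interval for the 9 tested genes, in fed (green) and FD (purple) mice, with filled points for q under 0.05. The *Ucp2* points lie at 2.30 and 2.06 with narrow intervals, and the *Angptl4* interval in FD mice runs from 1.37 to 8.29.

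The second comparison asked how FD changes these genes in AGRP neurons. None of the 9 tested members passed the threshold by edgeR, and 10.3% of all tested genes did. DESeq2 called 0 and limma-voom 1, which was *Angptl4*. That gene entered the tests through its AGRP FD libraries, so its call only describes its level there. At an unadjusted p under 0.05 there was 1 member (*Acadl*), beside 22.3% of all genes. No member had groups without overlap, beside 7.65% of all genes. The median log2 change of the 9 members was 0.05, and that of all tested genes was -0.02.

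Among the carnitine shuttle genes, *Cpt1a* (ENSMUSG00000024900, mm10 chr19:3323301-3385732, plus strand) encodes the liver form of the enzyme that loads long-chain acyl groups onto carnitine, which is the step that malonyl-CoA inhibits. It was near the limit of detection, at 0.732, 3.25, 3.53, 2.37 and 0.536 CPM in fed and 0 to 2.43 CPM (median 0.633) in FD mice. *Cpt1c* (ENSMUSG00000007783, mm10 chr7:44959373-44974851, minus strand) encodes the neuronal form, which resides in the endoplasmic reticulum and adds little to oxidation. It was at 53.2 to 84.7 CPM in fed and 31.5 to 79.2 CPM (median 55.7) in FD mice. *Cpt2* (ENSMUSG00000028607, mm10 chr4:107903981-107923610, minus strand) encodes the enzyme on the inner membrane that gives the acyl group back to CoA, and was at 8.93 to 22.8 CPM in fed and 2.58 to 25.4 CPM in FD mice. The log2 changes of *Cpt1a* (-1.12 ± 1.39), *Cpt1c* (-0.19 ± 0.23) and *Cpt2* (0.05 ± 0.55) were within their errors. The 95% interval of *Cpt1c* (-0.67 to 0.28) leaves out a doubling or a halving, whereas that of *Cpt1a* (-3.97 to 1.72) holds both.

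None of the 3 beta-oxidation enzymes passed edgeR's threshold with FD in AGRP neurons. *Acadl* (ENSMUSG00000026003, mm10 chr1:66830839-66863277, minus strand), the long-chain acyl-CoA dehydrogenase of the first step, was at 7.23, 10.0, 8.95, 16.7 and 13.5 CPM in fed and 1.98 to 10.4 CPM (median 4.98) in FD mice. In FD mice 5 of the 6 libraries lay below every fed library. The log2 change was -1.11 ± 0.48 (q = 0.154 by edgeR), with -1.12 in the younger and -1.31 in the older cohort alone, and limma on log2(TPM + 1) called it (-1.32, q = 0.0302). *Acadm* (ENSMUSG00000062908, mm10 chr3:153922357-153944632, minus strand), which does the same for medium chains, was at 25.4, 15.1, 30.3, 32.7 and 25.8 CPM in fed and 6.92 to 23.3 CPM (median 17.2) in FD mice, with all FD libraries below 4 of the 5 fed libraries. Its log2 change was -0.71 ± 0.38 (q = 0.275), with -1.26 in the younger and -0.28 in the older cohort.

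*Hadha* (ENSMUSG00000025745, mm10 chr5:30118301-30155162, minus strand) encodes the alpha subunit of the trifunctional protein, which carries out the last steps of the cycle on long chains together with the beta subunit from *Hadhb*. It was at 75.7, 95.1, 108, 76.0 and 120.5 CPM in fed and 86.1 to 169.5 CPM (median 98.4) in FD mice, with a log2 change of 0.19 ± 0.24 (q = 0.715). *Hadhb* changed by -0.0038 ± 0.28 (q = 0.998). The loci of the 2 subunits lie head to head, 85 bases apart, and their promoter windows share 228 bases. The 250 bases before the RefSeq start of *Hadha* (chr5:30154981-30155230, minus strand, GRCm38.p6) are shown for this shared stretch, and hold none of the motifs searched. The *Hadha* locus of the count table runs to 30155162, so the RefSeq start and most of these bases lie inside it.

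Hadha: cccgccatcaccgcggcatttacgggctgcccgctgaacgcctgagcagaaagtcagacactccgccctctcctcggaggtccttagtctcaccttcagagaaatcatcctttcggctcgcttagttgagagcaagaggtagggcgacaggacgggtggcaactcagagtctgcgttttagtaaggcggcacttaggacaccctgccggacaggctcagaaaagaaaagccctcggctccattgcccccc

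Over the 21 libraries the log2 levels of *Hadha* and *Hadhb* had a correlation of 0.409 (Pearson's r), and 0.402 with the group means removed. Among the 5 members whose mean exceeded 20 CPM in 1 or more groups, the correlations with group means removed ran from -0.361 (*Ucp2* and *Acadm*) to 0.435 (*Cpt1c* and *Hadha*). These points share library depth and amplification.

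*Ppargc1a* was at 47.4 to 128 CPM (median 90.4) in AGRP neurons of FD mice, against 42.8 to 63.4 CPM in fed mice. Of the 6 FD libraries, 5 lay above every fed library. The log2 change was 0.76 ± 0.38 (q = 0.228), with 0.30 in the younger and 1.12 in the older cohort, and the older FD libraries (79.8 to 128 CPM) lay above the older fed libraries (42.8 to 63.4 CPM). *Ucp2* did not pass the threshold (log2 change 0.26 ± 0.18, q = 0.425), and its 95% interval of -0.10 to 0.62 leaves out a doubling.

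*Angptl4* had the largest fitted change of the members with FD in AGRP neurons. In fed mice it was at 0.137, 0.0551, 0.122, 0 and 2.84 CPM, so 4 of 5 libraries held 3 counts or fewer, whereas all 6 FD libraries held 33 to 201 counts (1.73 to 10.2 CPM). AGRP fed replicate 5, with 53 counts, lay within the FD range. The fitted log2 change of 3.02 ± 1.53 (q = 0.247 by edgeR) differed between fits, all of which include *Angptl4* through its AGRP FD libraries. Limma-voom gave 4.51 (q = 0.00744), limma on log2(TPM + 1) gave 1.84 (q = 0.0111), and edgeR without AGRP fed replicate 5 gave 5.93 (q = 0.0425), in a fit that kept only fed libraries of 3 counts or fewer. In the older cohort, where the share of all genes without overlap was not counted, the 3 fed libraries (0.0551 to 0.137 CPM) and the 3 FD libraries (1.73 to 10.2 CPM) did not overlap (5.43, q = 0.218). In the younger cohort the 2 fed libraries were at 0 and 2.84 CPM and the 3 FD libraries at 2.08 to 9.35 CPM (1.95, q = 0.887). Beside this, the summed level of the endothelial markers was 0.226 to 4.51 TPM in AGRP fed and 0.540 to 10.2 TPM in AGRP FD libraries, of the mural cell markers 0.399 to 3.09 and 2.03 to 4.85 TPM, and of the astrocyte markers 1.73 to 8.91 and 1.60 to 14.5 TPM. The upper ends of the other 3 lists were lower with FD. The oligodendrocyte markers summed to 33.1 to 57.9 TPM in AGRP fed and 27.7 to 40.6 TPM in AGRP FD libraries. The microglial markers summed to 1.13 to 20.9 and 0.384 to 5.81 TPM. The tanycyte and ependymal markers summed to 1.24 to 14.7 and 1.99 to 9.565 TPM. The part of other cells in the *Angptl4* level was not tested.

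*Pdk4* (ENSMUSG00000019577, mm10 chr6:5483351-5496309, minus strand) encodes the pyruvate dehydrogenase kinase that fasting raises in many tissues, and was not tested because it did not pass the filter on low counts. It held 0, 21, 0, 28 and 10 counts in AGRP fed libraries and 11, 0, 1, 0, 0 and 1 counts in AGRP FD libraries. In POMC neurons 8 of 10 libraries held 0 counts, and the others held 8 and 1. At these depths 3 counts correspond to 0.0797 to 0.305 CPM, and the highest level in any library was 1.33 CPM.

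The same question in POMC neurons also gave 0 of the 9 members past the threshold by edgeR, DESeq2 and limma-voom, beside 0.375% of all tested genes by edgeR. At an unadjusted p under 0.05 there were 2, *Ucp2* and *Ppargc1a*, beside 12.2% of all genes. None had groups without overlap, beside 2.35% of all genes. The median log2 change of the members was -0.18 and that of all tested genes -0.02.

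*Ucp2* in POMC neurons had a log2 change of 0.50 ± 0.19 (q = 0.228), from the fed and FD values given above, in which 4 of the 5 FD libraries lay above all 5 fed libraries. In the 6 POMC libraries with the same volume of spike-in RNA (3 fed, 3 FD) it was 0.33 (q = 0.754), in a fit that kept all AGRP libraries. With scaling to spike-in RNA per cell the sign turned (-0.57, q = 0.606), while the median of all genes in POMC neurons stood at -1.11 on the log2 scale under that scaling. The POMC FD replicates 4 and 5 had 10 µl of spike-in RNA and no POMC fed library had over 2.16 µl, so outside the 6 libraries of equal volume the volume and FD cannot be fully told apart.

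*Ppargc1a* in POMC neurons of FD mice was at 7.94, 73.3, 84.0, 47.5 and 39.0 CPM. Of these libraries, 3 lay above all fed libraries and replicate 1 lay below all of them. The log2 change was 1.01 ± 0.39 (q = 0.260), and 1.29 (q = 0.0705) without FD replicate 1. That library, from the fewest cells (44), also had the lowest level of *Hadha* (37.6 CPM, against 75.8 to 137 CPM in the other FD libraries) and of *Cpt2* (0.479 CPM, against 7.53 to 17.5 CPM). It was the lowest POMC FD library for *Cpt1c* (47.5 CPM) and *Acadm* (11.5 CPM) as well, but the highest for *Ucp2* (63.6 CPM) and *Cpt1a* (1.49 CPM). The part of cell number in these values was not tested.

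The other members in POMC neurons changed by -1.36 (*Angptl4*) to 0.27 (*Cpt1a*) on the log2 scale, with q of 0.703 or more. *Acadl* was at 12.8, 10.8, 14.1, 14.7 and 6.47 CPM in fed and 7.30, 12.03, 3.77, 4.32 and 11.7 CPM in FD mice (-0.59 ± 0.50). *Acadm* was at 10.8 to 41.1 and 11.5 to 30.1 CPM (-0.22 ± 0.40), *Hadha* at 69.7 to 102 and 37.6 to 137 CPM (0.12 ± 0.25) and *Cpt1c* at 40.9 to 80.4 and 47.5 to 69.7 CPM (-0.22 ± 0.24). The *Angptl4* change rested on POMC fed replicate 3, with 57 counts where the other fed libraries held 0 or 1, and turned to 3.39 (q = 0.386) without it.

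**Figure D3:**
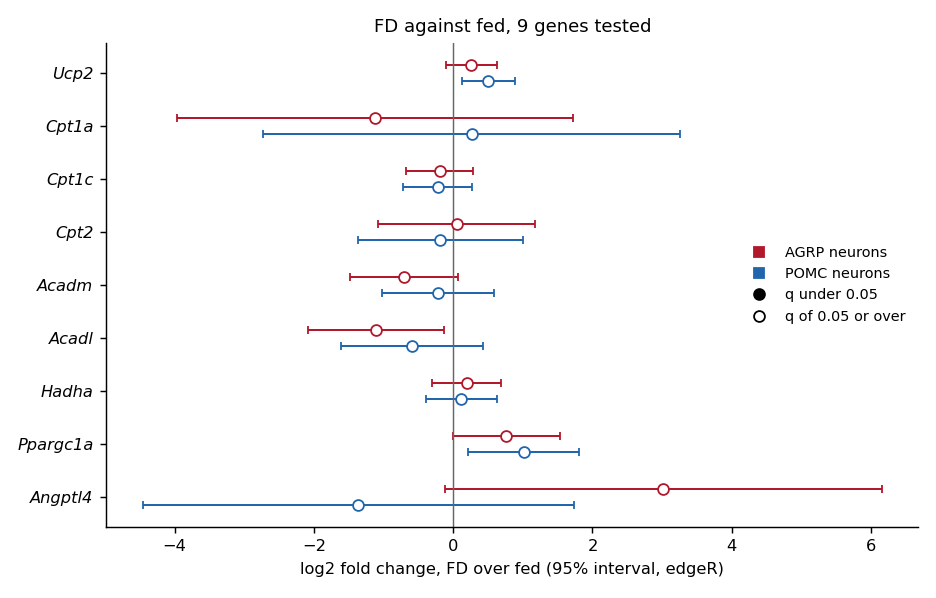
Log2 fold change of FD over fed (horizontal axis) with its 95% interval for the 9 tested genes in AGRP (red) and POMC (blue) neurons, with open points for q of 0.05 or over. All points are open, and the widest intervals belong to the scarce transcripts *Cpt1a* and *Angptl4*.

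Whether FD acted differently in the 2 cell types was tested as the interaction of cell type and FD, which is the log2 change in AGRP neurons minus that in POMC neurons. No member passed by edgeR, DESeq2 or limma-voom, and none had an unadjusted p under 0.05, beside 6.71% of all genes called and 3297 of the 16513 with an unadjusted p under 0.05. *Angptl4*, which entered the tests through its AGRP FD libraries, came closest, with a log2 interaction of 4.38 ± 2.14 (q = 0.251). It fell to -0.37 (q = 0.873) without POMC fed replicate 3. For *Ucp2* (-0.24 ± 0.26) and *Ppargc1a* (-0.25 ± 0.54) the changes in AGRP and POMC neurons were within their errors of each other.

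To place the members among the genes they work with, 132 genes in 11 lists of fuel use were counted, 122 of which were tested. With FD in AGRP neurons 6 of these rose and 5 fell (9.02%, beside 10.3% of all tested genes, 5.87% higher and 4.43% lower). By limma on log2(TPM + 1), with the median of all genes at -0.28, 5 rose and 15 fell. The share of all genes called by this limma fit was not counted, so its split is not read as a result about the lists. In POMC neurons 1 rose and 0 fell by edgeR (0.820%, beside 0.375% of all genes, 0.182% higher and 0.194% lower). The lists of fat oxidation itself held 0 genes called by edgeR in either cell type, among 8 genes of the carnitine shuttle, 19 of mitochondrial beta-oxidation and 10 of peroxisomal beta-oxidation, with median log2 changes in AGRP neurons of -0.14, -0.30 and -0.18. The lists of malonyl-CoA control (4 genes), lipolysis and lipid droplets (12), ketone body metabolism (6) and uncoupling proteins (4) also held 0. The called genes lay in 4 lists, which were fatty acid uptake and activation, pyruvate dehydrogenase and its control, glycolysis and the transcriptional regulators.

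**Figure D4:**
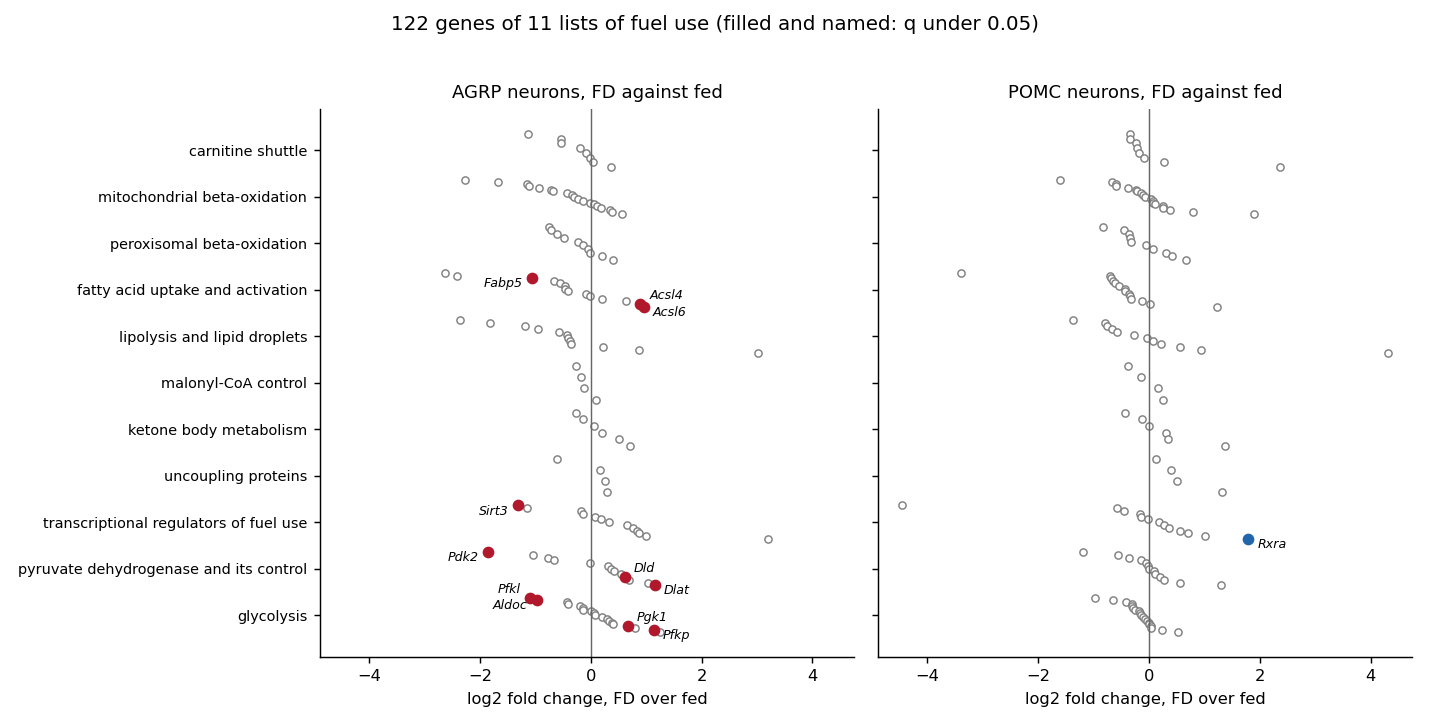
Log2 fold change of FD over fed (horizontal axis) of each of the 122 tested genes in the 11 lists (rows), in AGRP (left) and POMC (right) neurons, with called genes filled and named. The 11 called genes in AGRP neurons lie in 4 of the lists, and *Rxra* is the 1 called gene in POMC neurons.

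Around pyruvate dehydrogenase, the gate through which pyruvate becomes acetyl-CoA, 2 of 13 tested genes rose and 1 fell in AGRP neurons. *Dlat*, the E2 subunit of the complex, was at 230.1, 230.5, 166, 187 and 184 CPM in fed and 320.1 to 559.8 CPM (median 449) in FD mice, without overlap. Its log2 change was 1.16 ± 0.16 (q = 1.67e-05 by edgeR), and it passed in each age cohort alone (1.23 and 1.12). *Dld*, the E3 subunit, which is shared with other dehydrogenase complexes, rose by 0.62 ± 0.18 (q = 0.0227), but lost the call in 4 of 11 fits without 1 library (without AGRP fed replicates 1, 3 or 5 or FD replicate 4) and in each cohort alone. *Pdk2*, a kinase that inactivates the complex and is closely related to *Pdk4*, fell from 50.5, 70.7, 70.2, 64.0 and 50.6 CPM in fed mice to 5.35 to 29.9 CPM (median 16.9) in FD mice, again without overlap. Its log2 change was -1.86 ± 0.40 (q = 0.00197). In 10 alternative fits (other methods, scalings, filter, blocks or a cohort alone) *Pdk2* passed in 8 and *Dlat* in 9.

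In POMC neurons *Pdk2* stood the other way, at 35.3, 10.6, 8.77, 17.6 and 13.6 CPM in fed and 77.1, 24.2, 26.1, 31.1 and 51.9 CPM in FD mice, with overlapping groups (1.30 ± 0.41, q = 0.157). The interaction was -3.15 ± 0.57 (q = 6.62e-04 by edgeR). *Pdk2* was accordingly higher in AGRP than in POMC neurons of fed mice (1.84 ± 0.42, q = 0.00398) and lower in FD mice (-1.32 ± 0.39, q = 0.0164). *Dlat* showed an interaction of 1.17 ± 0.23 (q = 0.00183), with a change of -0.01 ± 0.17 in POMC neurons.

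Of 14 tested genes of fatty acid uptake and activation, 2 rose and 1 fell in AGRP neurons. *Acsl6* and *Acsl4* encode acyl-CoA synthetases, which join fatty acids to CoA, the former with a preference for polyunsaturated fatty acids in brain and the latter for arachidonic acid. *Acsl6* was at 93.3, 91.1, 69.5, 51.4 and 73.1 CPM in fed and 125 to 192 CPM (median 139.7) in FD mice (0.96 ± 0.18, q = 5.15e-04). *Acsl4* was at 68.6, 72.1, 66.1, 69.1 and 85.6 CPM in fed and 107 to 161 CPM (median 136) in FD mice (0.89 ± 0.18, q = 0.00109). Both were without overlap and both differed from POMC neurons in their response (interactions of 1.08 ± 0.25 and 1.26 ± 0.26). *Fabp5*, a fatty acid binding protein, fell by 1.06 on the log2 scale (q = 0.0479) with overlapping groups, and lost the call in 7 of 11 fits without 1 library (without AGRP fed replicates 2, 3 or 5 or FD replicates 1, 2, 3 or 5), which gave q up to 0.164.

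In glycolysis 2 of 19 tested genes rose and 2 fell in AGRP neurons. The 2 called phosphofructokinase genes went opposite ways. *Pfkp*, the platelet form, rose from 70.8 to 137 CPM in fed mice to 161 to 289.9 CPM in FD mice (1.14 ± 0.19, q = 1.16e-04) and *Pfkl*, the liver form, fell from 44.0 to 80.6 CPM to 13.2 to 44.5 CPM (-1.10 ± 0.30, q = 0.0153). *Aldoc*, the brain aldolase, which astrocytes also express, fell by 0.97 on the log2 scale (q = 0.00824), beside the astrocyte marker sums given above. The call of *Pfkl* was lost without AGRP fed replicate 4 (q = 0.0594).

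Among 13 tested regulators, *Sirt3*, the mitochondrial deacetylase that activates the product of *Acadl* and other oxidation enzymes, fell in AGRP neurons from 11.8 to 15.7 CPM in fed to 3.59 to 7.78 CPM in FD mice, without overlap (-1.31 ± 0.39, q = 0.0290). The call was lost in 6 of 11 fits without 1 library (without AGRP fed replicates 2, 3 or 5 or FD replicates 2, 3 or 4), with q up to 0.0635. *Rxra*, the partner receptor with which PPARs bind DNA, was the 1 gene of all lists that rose by edgeR in POMC neurons. It was at 14.1, 10.6, 15.4, 13.0 and 7.70 CPM in fed and 22.2, 44.6, 67.1, 30.1 and 46.4 CPM in FD mice, without overlap (1.79 ± 0.30, q = 0.00170). In AGRP neurons it was at 36.8 to 54.0 and 28.5 to 61.0 CPM (0.09 ± 0.28), and the interaction was -1.70 ± 0.40 (q = 0.00850).

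**Figure D5:**
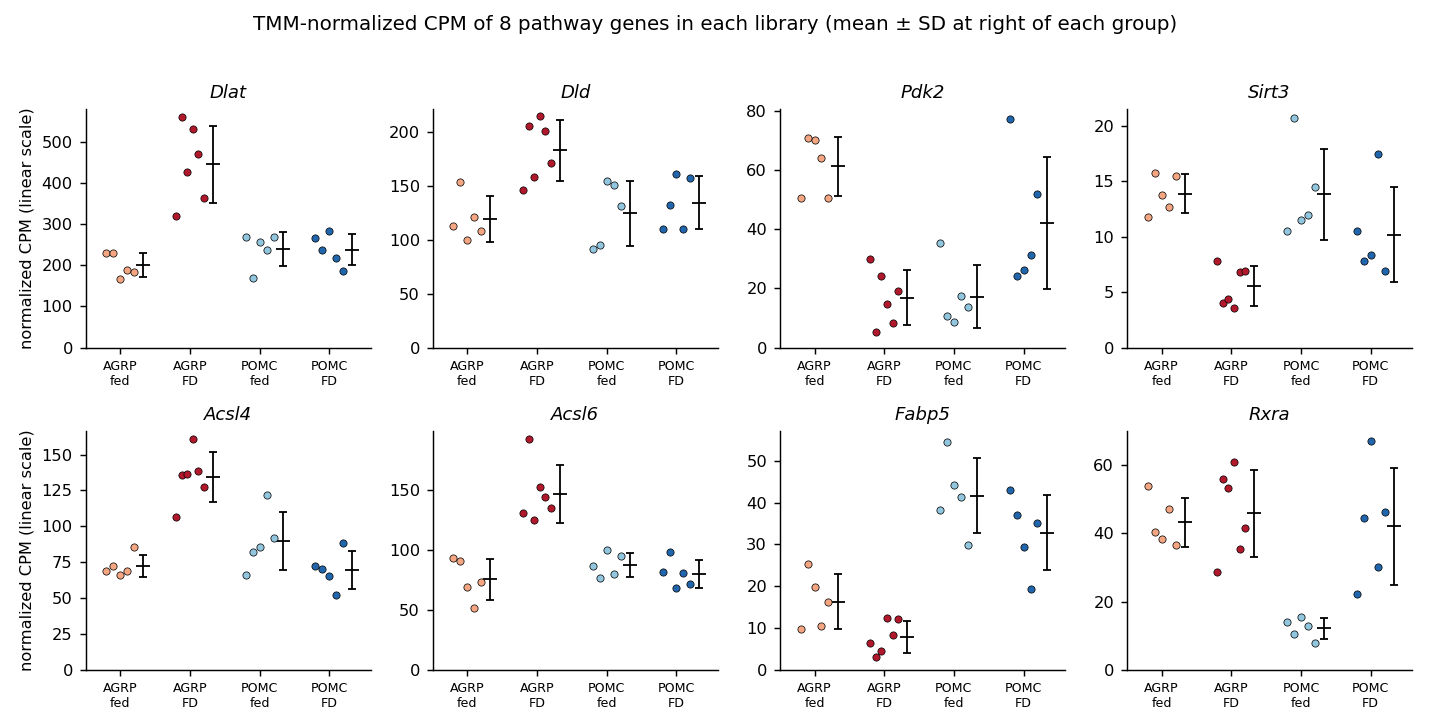
Normalised CPM (vertical axes, linear from 0) of 8 genes of the lists in every library of the 4 groups (points), with the group mean ± SD beside them. *Pdk2* lies at 50.5 to 70.7 in AGRP fed libraries and at 5.35 to 29.9 in AGRP FD libraries, and *Rxra* lies at 7.70 to 15.4 in POMC fed libraries and at 22.2 to 67.1 in POMC FD libraries.

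Between the cell types, 19 of the 122 tested genes of the lists were called in fed mice (6 higher and 13 lower in AGRP neurons, 15.6% beside 7.57% of all genes) and 22 in FD mice (11 and 11, 18.0% beside 18.6%). The interaction was past the threshold for 8 (6.56% beside 6.71%).

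The genes with the profile most like each member over the 21 libraries, among the 8205 genes whose mean exceeded 20 CPM in 1 or more groups, were ranked by Pearson's r of log2 levels. For *Ucp2* these were *Elmo1* (0.975) and *Otp* (0.969), which fell to 0.673 and 0.246 with the group means removed. For *Ppargc1a* they were *Pgm3* (0.870, and 0.755 with group means removed) and *Acvr1* (0.845 and 0.766), for *Hadha* *Tom1l2* (0.792 and 0.773) and *Mfsd5* (0.788 and 0.803), for *Cpt1c* *Glo1* (0.790 and 0.759) and *9530077C05Rik* (0.754 and 0.752), and for *Acadm* *Camsap3* (0.762 and 0.726) and *Cpne5* (0.757 and 0.726). As the highest of many, these values describe these libraries.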

How the data were processed

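RNA of hand-sorted neurons was amplified with the Ovation kit, without molecular identifiers, and sequenced. Per the labels and the methods, the authors trimmed reads with cutadapt 1.7.1, removed unwanted reads with Bowtie2 2.1.0, mapped to mm10 with STAR 2.4.0i and counted reads per gene with HTSeq 0.6.1p1. The deposited counts are raw and without strand, and the authors made the deposited TPM from them by exon length. Reads that lie wholly in exon bases shared with a gene on the other strand cannot be assigned. Such bases were 305 of 3988 exon bases of *Ucp2* (*Dnajb13*), 366 of 2794 of *Cpt1c* and 75 of 4017 of *Hadha*. They were taken from a later GENCODE annotation than that of the counts. Gene starts in the files count from 0 and were raised by 1.

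Samples were grouped by the labels. The members and lists were chosen with earlier results of these data known. Genes with CPM over 1 in at least 3 libraries (16513) entered 1 edgeR 4.0.16 quasi-likelihood fit of 21 libraries in 4 groups with TMM scaling (R 4.3.3, two-sided, Benjamini-Hochberg q over all genes, called under 0.05). The stricter criteria also asked for a log2 change beyond 1 in size and for over 20 CPM as the mean of 1 or more groups. Alternatives were limma-voom and limma on log2(TPM + 1) (limma 3.58.1), DESeq2 1.42.0, RLE scaling, no filter, spike-in scaling, replicate or age cohort blocks, and each library left out. The cohorts alone and the libraries with 1 µl of spike-in alone were added after the values were seen. Each of these fits left out libraries of 1 cell type and kept all libraries of the other. Within the lists, up to 3 called genes per list and comparison were named, by smallest q. Intervals are 95%. The scripts were tested on simulated data. Each library came from a separate mouse, so p-values rest on the spread between libraries. In that spread the mouse, the sorting and the amplification cannot be told apart. Counting limits (3 counts) cover counting error only.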

Additional observations from a re-analysis of the deposited data

Results flagged for a closer look

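A single library stood apart from the rest of its group (Dixon's test at 95%) in 8 of 88 groups of values examined, where chance flags about 1 in 20 for values with a continuous spread. Where all other libraries were at 0, as for *Pdk4* in both POMC groups, a single count is enough. Most of these were scarce transcripts, for which the levels are normalised CPM. *Cpt1a* was at 1.30 in POMC fed replicate 3, with 0.266 as the next value. *Angptl4* was at 2.84 in AGRP fed replicate 5 (next 0.137), at 2.24 in POMC fed replicate 3 (next 0.0370) and at 0.621 in POMC FD replicate 2 (next 0.145). *Pdk4* was at 0.634 in AGRP FD replicate 1 (11 counts, next 0.0745), at 0.314 in POMC fed replicate 3 (8 counts, others 0) and at 0.0725 in POMC FD replicate 5 (1 count, others 0). POMC fed replicate 3 was thus the high library for all 3 of these genes. Among the abundant transcripts *Hadha* was at 169.5 in AGRP FD replicate 2 (next 107).

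For none of the 9 tested members did the interaction of cell type and FD pass edgeR's threshold. The 95% interval for *Angptl4*, which entered the tests through its AGRP FD libraries, ran from -0.0045 to 8.76. Its interaction was -0.37 (q = 0.873 by edgeR) without POMC fed replicate 3. Among the other genes of the lists the interaction passed for 8, which were *Acsl6* (1.08), *Acsl4* (1.26), *Dlat* (1.17), *Pfkp* (0.90), *Pdk2* (-3.15), *Rxra* (-1.70), *Pdk3* (2.22) and *Ldha* (1.05). These values are the signed log2 change in AGRP neurons minus that in POMC neurons, so their sign does not tell which change was larger in size. *Pdk3* and *Ldha* fall outside the rule for named genes and were added after their values were seen. *Pfkp* lost the call in 10 and *Pdk3* in 14 of 21 fits that left out 1 library (q up to 0.0823 and 0.103), and the other 6 passed in all 21.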

How the results depend on the processing

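Counts of members past the threshold were 0 with FD in POMC neurons and for the interaction under every alternative run, the fits without 1 library included. With FD in AGRP neurons limma-voom gave 1 member, limma on log2(TPM + 1) 2, and the fits without 1 library 0 to 1. Wherever a member was called here, *Angptl4* was among those called, and it entered the tests through its AGRP FD libraries. In fed mice between the cell types DESeq2 gave 2 members, the replicate block 2, spike-in scaling 0, and fits without 1 library 1 to 2. In FD mice limma-voom gave 3, the replicate block 1, the age cohort block 1, the stricter criteria 1 and fits without 1 library 1 to 2. For the 122 tested genes of the lists, spike-in scaling gave 0 with FD in AGRP neurons, 0 in POMC neurons, 0 between cell types in fed mice, 4 in FD mice and 1 for the interaction. Limma on log2(TPM + 1) gave 20 with FD in AGRP neurons. The younger cohort alone gave 2 with FD in AGRP neurons and the older 6, where fewer libraries entered. Apart from fits without 1 library, each named gene had 10 alternatives with FD in AGRP neurons. Of these, *Dlat* and *Acsl6* passed in 9, and *Pdk2*, *Acsl4*, *Pfkp* and *Aldoc* in 8. *Pfkl* passed in 7, *Dld* in 6, *Sirt3* in 5 and *Fabp5* in 4. The age cohort block gave 14 between cell types in FD mice, and DESeq2 14 interactions. Fits without 1 library gave 7 to 14 with FD in AGRP neurons (7 without AGRP fed replicate 3) and 10 to 17 between cell types in fed mice (10 to 12 without AGRP fed replicate 3 or 4 or POMC fed replicate 1 or 2). For the alternative fits the share of all genes called was not counted. These counts, the 0s with spike-in scaling included, therefore do not tell the members and lists from other genes.

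Signs turned, in log2 values that were not called, with spike-in scaling (*Ucp2* -0.57, *Cpt1a* -0.39 and *Hadha* -1.20 with FD in POMC neurons, interactions of 0.79 for *Ucp2* and 0.31 for *Ppargc1a*), with limma-voom (*Cpt2* -0.012 in AGRP neurons, *Cpt1a* -0.31, *Angptl4* 0.31 and *Hadha* -0.076 in POMC neurons), with limma on TPM in AGRP neurons (*Cpt2* -0.33, *Hadha* -0.071), in libraries with equal spike-in volume in POMC neurons (*Cpt1a* -0.27, *Acadm* 0.13, *Hadha* -0.30), in the younger cohort (*Cpt1c* 0.034), in the older cohort (*Cpt2* -0.064), with the replicate block (*Angptl4* 0.37 with FD in POMC neurons) and with the age cohort block (*Angptl4* -0.92 between cell types in fed mice). The cause was not tested. Fits without 1 library turned *Cpt1a* (-0.88 to 1.54), *Cpt2* (-0.47 to 0.13), *Angptl4* (-2.93 to 3.39), *Acadm* (-0.40 to 0.083) and *Hadha* (-0.080 to 0.31) with FD in POMC neurons, *Cpt2* (-0.22 to 0.32) in AGRP neurons, *Angptl4* (-2.46 to 5.19) between cell types in fed mice, and the interactions of *Angptl4* (-0.37 to 7.29) and *Ppargc1a* (-0.52 to 0.016). Spike-in scaling moved the median of all genes to -1.11 with FD in POMC neurons, limma on TPM to -0.28 and limma-voom to -0.13 in AGRP neurons.

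Replicate numbers did not pair the libraries (correlations of deviations from -0.189 to 0.122), so the replicate block shares a number only. Under it *Ppargc1a* passed between cell types in fed mice (1.18, q = 0.0465 by edgeR), and *Angptl4* in FD mice (4.73), *Fabp5* (-1.20) and *Sirt3* (-1.39) did not pass. Depth limits *Cpt1a*, *Angptl4* and *Pdk4*, whose libraries often held 3 counts or fewer.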
